A study of Homo sapiens with 22 samples.

Results

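The comparison described here is that of SH-SY5Y cells carrying an shRNA against CASC15-003 with cells carrying a control shRNA, both at day 7 of differentiation. Its members are 5 of the 22 samples of the series, chosen by title: 3 knockdown libraries, called sh003 below, and 2 control libraries. SH-SY5Y is a human neuroblastoma cell line of sympathetic neuroblast character. Every group carried a lentiviral shRNA and had been selected with puromycin, and the control shRNA was a scrambled sequence with no mammalian target. Per the labels, day 7 cells received retinoic acid for 7 days at a dose given as 10 mM, in medium whose serum is given as 1% in one protocol field and 10% in another. Per the treatment field, cells titled day 0 grew in 10% serum without retinoic acid, except for 1 library named below. The sh003 libraries came from 2 shRNAs: sh1 in batch 2, and sh2 in batch 1 and batch 2. The 2 controls came from batch 1 and batch 2. The titles put the sh1 library at day 7, but its culture tag reads non-differentiated and its treatment field describes plain 10% serum medium. The day 0 sh2 library of batch 1 shows the reverse: its culture tag and treatment field give retinoic acid and 1% serum. Both libraries were grouped by title, against those 2 fields. HEY1, CASC15, the cell cycle list and the list medians that move most are also given without the day 7 sh1 library, and the day 0 reading without the day 0 sh2 library of batch 1. The labels do not say whether libraries came from separate cultures or whether a line was 1 clone. The spread behind the p-values may therefore be technical. That spread was estimated within groups over all 15 libraries fitted, these 5 included. The SE of a gene thus also depends on libraries outside the comparison.

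CASC15 makes long non-coding RNAs from 6p22.3, a locus of neuroblastoma susceptibility, and the series title links it to an axis of the deubiquitinase USP36, the chromatin remodeller CHD7 and the transcription factor SOX9. Neuroblastoma cells can hold an adrenergic state, with catecholamine enzymes, secretory granules and transcription factors of sympathetic neurons, or a mesenchymal state, rich in extracellular matrix and adhesion proteins. Retinoic acid drives SH-SY5Y cells out of division and towards neurons. Notch receptors, activated by ligands on neighbouring cells, switch on repressors of the HES and HEY families, which hold back neuronal genes in many tissues.

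The shRNA targets come first because they set what can be read of the knockdown. Each is 21 bases long, written 5′ to 3′ with the strand of the CASC15 transcript, and both were matched to CASC15 transcripts of the GENCODE release 29 annotation (build GRCh38).

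CASC15-003 sh1: ctagcactgacctccttcatt

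CASC15-003 sh2: ctttccatcagccaacaatat

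The sh1 target lies at chr6:21668702-21668722 and the sh2 target at chr6:21668743-21668763, both on the plus strand and 20 bases apart. They fall in the same exon, which is exon 3 of 7 in transcript CASC15-205 and exon 2 of 12 in CASC15-206. Of the 8 CASC15 transcripts annotated, 2 hold both targets, and no other gene's transcript matched. The targets of the CASC15-004 shRNAs lie 478.2 kb downstream, in an exon that neither transcript shares.

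**Figure D1:**
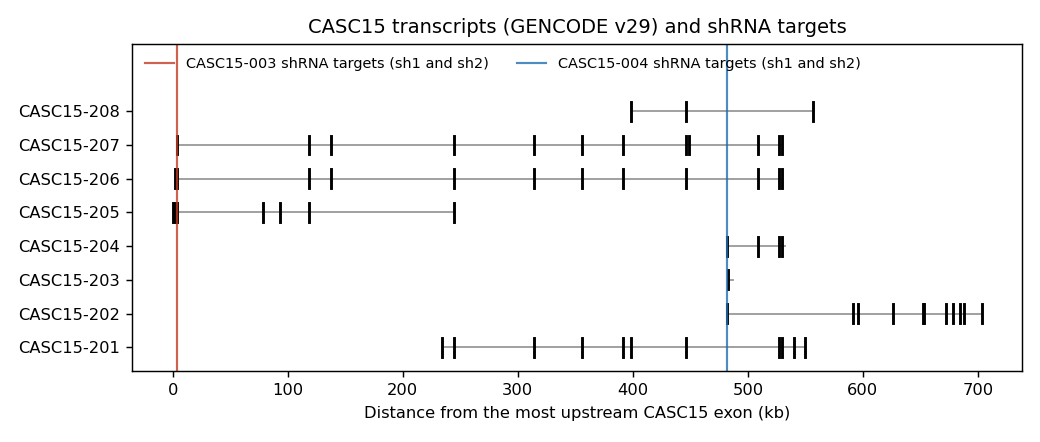
Exons (black ticks, not drawn to width) of the 8 CASC15 transcripts against distance in kb from the most upstream exon, with the shRNA targets as coloured lines. The CASC15-003 targets sit near the upstream end in 2 of the 8 transcripts, and the CASC15-004 targets lie 478.2 kb further on in transcripts that lack them.

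CASC15 itself, read as the sum of all its transcripts, stood at 3.33 and 3.26 RPKM (reads per kilobase of gene and per M of assigned reads) in the control libraries of batches 1 and 2. The sh003 libraries gave 3.27 (sh2, batch 1), 3.38 (sh2, batch 2) and 2.08 (sh1, batch 2). The groups overlapped: the sh1 library lay lowest of the 5, and both sh2 libraries lay at the level of the controls. The log2 change was -0.18 (SE 0.27, adjusted p = 0.991 by limma), and 0.01 without the sh1 library. Since 6 of the 8 transcripts lack the targets, the gene total does not show whether the targeted transcripts were lost. USP36 stood at 13.5 and 9.77 RPKM in controls and 13.0, 10.7 and 10.9 in sh003 libraries, in the order just used, and the groups overlapped.

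CHD7 stood at 19.1 and 16.3 RPKM in controls, and at 12.1, 9.23 and 11.7 in knockdown libraries. All 3 knockdown libraries lay below both controls, at a log2 change of -0.67 (SE 0.26, adjusted p = 0.602 by limma, and 0.201 with batch as a block). SOX9 gave 41.5 and 13.5 RPKM in controls and 54.6, 28.7 and 46.5 with sh003. The 2 controls lay further apart than the knockdown libraries by ratio, and the groups overlapped (log2 change 0.80, SE 0.70, adjusted p = 0.991). The SOX9 ratio to the control of the same batch was above 0 in all 3 libraries, at 0.39, 1.06 and 1.75 on the log2 scale, while the log2 change of SOX9 was 0.01 without the batch 2 control.

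CYP26A1, whose enzyme degrades retinoic acid and whose gene responds to it, was read as a sign of the drug. It stood at 221 and 225 RPKM in day 7 controls and at 588, 571 and 687 in sh003 libraries, against at most 0.271 in the day 0 libraries of both groups. The sh1 library tagged as non-differentiated had the highest level of the 5, on the side of its title. The day 0 library tagged with retinoic acid read 0.199, also on the side of its title. All 3 knockdown libraries lay above both controls, at a log2 change of 1.46 (SE 0.99, adjusted p = 0.887).

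The 5 libraries held 15.4 to 32.7 M assigned reads, and both of batch 1 were the shallowest. Batch 1 also stands apart in content: 76 genes were at 0 in all 4 of its libraries, day 0 included, yet at 5 RPKM or more in the 11 others, and 59 of these lie on chromosome 6. A further 93 genes, all pseudogenes, showed the reverse. Each sh003 library is therefore also set against the control of its own batch, and these 3 within-batch ratios carry no test. The titles name the batches, so a second fit with batch as a block was made. The first fit gives the values below unless the block is named. It leaves batch out, and batch 1 is a larger share of the controls than of the sh003 libraries. Changes from the first fit therefore hold part of any difference between batches.

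Across 19461 genes tested, no gene passed an adjusted p of 0.05 by limma without the block, in either direction (0 higher, 0%; 0 lower, 0%). At an unadjusted p under 0.05 there were 1405 genes, and the smallest adjusted p was 0.46. limma's voom weights on the recovered reads also called 0 genes, with 1533 at that unadjusted level. With the batch block, 0 genes were called higher (0%) and 1 was called lower (0.00514%), with 2823 genes at an unadjusted p under 0.05. That gene is HEY1.

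HEY1, a repressor switched on by Notch signalling, read 19.4 and 27.4 RPKM in the control libraries of batches 1 and 2. The sh003 libraries read 6.85 (sh2, batch 1), 5.93 (sh2, batch 2) and 5.86 (sh1, batch 2). The 3 knockdown libraries, which differ in shRNA or batch, lay close together and well below both controls, which a choice by smallest p favours. The means were 23.4 ± 5.65 (SD, n = 2) and 6.22 ± 0.554 (SD, n = 3), from 964 and 2870 reads in the controls and 365 to 619 in the knockdowns. HEY1 fell by 1.82 on the log2 scale with the block (SE 0.18, adjusted p = 0.023 by limma); without the block the change was -1.81 (SE 0.34, adjusted p = 0.46). In the blocked limma fit the adjusted p of HEY1 was 0.046 without the sh1 library, but 0.439 without the batch 2 control and 0.155 without the batch 2 sh2 library.

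The Notch list, HEY1 included, did not move as one. Of 22 listed, 16 were tested, 7 above and 9 below 0, with a median log2 change of -0.02 beside -0.09 over all genes, and -0.12 to 0.07 with 1 library left out. Among ligands, JAG1, which activates Notch on the next cell, read 9.31 and 8.75 RPKM in controls and 3.31, 3.49 and 3.54 with sh003. Its groups were far apart, at -1.27 (SE 0.31, adjusted p = 0.566, and 0.109 with the block). DLK1, a ligand-like protein of neuroendocrine cells, went from 49.3 and 115 RPKM in controls to 10.4, 4.45 and 8.53 (log2 change -3.26, SE 1.10, adjusted p = 0.58).

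Of the receptors, NOTCH2 and NOTCH1 lay on the opposite side. NOTCH2 read 24.2 and 14.5 RPKM in controls and 40.03, 55.7 and 43.9 in the knockdowns (log2 change 1.28, adjusted p = 0.588), and NOTCH1, at a far lower level, 2.21 and 0.790 against 7.66, 3.05 and 4.51 (1.49, adjusted p = 0.629). Both were above both controls in all 3 knockdown libraries, whereas NOTCH3 had overlapping groups at 38.5 and 16.8 against 33.7, 24.2 and 37.9. HES6, which opposes HES1 in neuronal precursors, read 72.0 and 42.1 against 36.8, 16.9 and 20.4 RPKM (-1.22, adjusted p = 0.603), while HES1 read 10.1 and 4.205 against 16.5, 14.3 and 8.48 with overlapping groups (0.89). HEY2, HEYL and HES5 were under 0.1 RPKM in all 5 libraries.

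**Figure D2:**
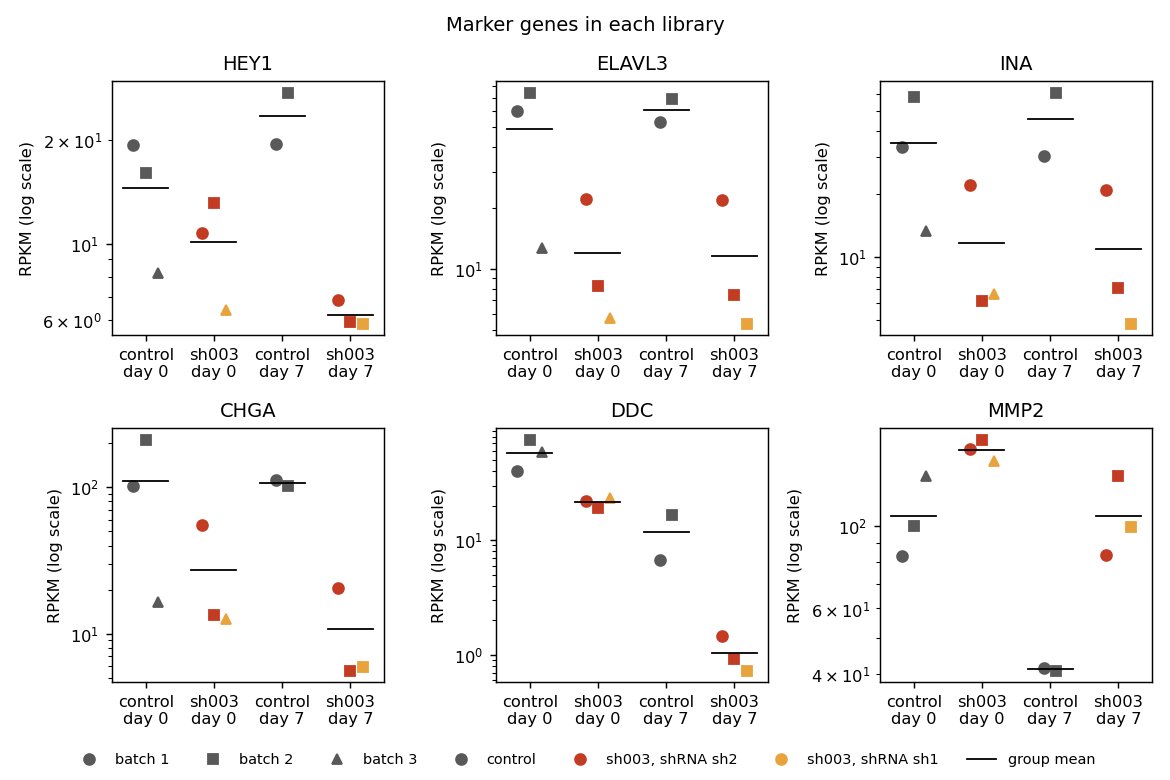
RPKM on a log axis of HEY1, ELAVL3, INA, CHGA, DDC and MMP2 in each control and sh003 library at day 0 and day 7; marker shape gives the batch, colour the shRNA, and the line the group mean. At day 7 all 3 sh003 libraries lie below both controls for the first 5 genes and above both for MMP2, and the batch 1 sh003 library (circle) is the nearest to the controls for ELAVL3, INA, CHGA and DDC.

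A wider set of genes differed in the same direction in every library without passing the test. All 3 sh003 libraries lay above both controls for 1782 genes (9.16%) and below both for 2652 (13.6%). Under a stricter rule, that each sh003 library differ more than 2-fold from the control of its own batch, 106 genes were higher (0.545%) and 107 lower (0.55%). These shares are the background for the gene groups that follow. Gene lists below are described by their counts and medians only, and no member other than HEY1 passed in either fit.

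Catecholamine synthesis and granule genes, the defining products of adrenergic cells, were mostly lower. Of 20 tested, 17 were below 0 and 3 above, 9 lay below both controls in all 3 libraries, and the median log2 change was -0.88 (-0.58 without the batch 2 control). CHGA, the main granule core protein, read 111 and 102 RPKM in controls and 20.6, 5.59 and 5.95 with sh003. The groups were far apart, and both batch 2 knockdown libraries lay close together at the bottom (log2 change -3.51, SE 1.301, adjusted p = 0.593, and 0.232 with the block).

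DBH, which turns dopamine into noradrenaline, read 247 and 167 RPKM in controls and 48.9, 33.2 and 16.6 in the knockdowns (log2 change -2.74, SE 0.81, adjusted p = 0.566). DDC, which makes dopamine from DOPA, read 6.70 and 16.8 against 1.46, 0.913 and 0.726 (-2.89, SE 0.69, adjusted p = 0.566, and 0.149 with the block). For both genes all 3 knockdown libraries lay below both controls by more than 2-fold within the batch, as they did for SLC6A2, the noradrenaline transporter (26.7 and 29.7 against 8.499, 4.79 and 3.33, at -2.34). The granule peptides behaved otherwise in batch 1: VGF read 1659 and 1059 RPKM in the controls of batches 1 and 2 but 3127 in the batch 1 sh2 library, 905 in the batch 2 sh2 library and 495 in the sh1 library. NPY likewise read 18.7 and 27.1 in controls and 63.5, 23.4 and 9.47 with sh003. The list's median within-batch ratio was accordingly -0.00 in the batch 1 library, with 11 of 20 members below 0, against -1.19 and -1.70 for sh2 and sh1 in batch 2. TH, the first enzyme of the pathway, was under 1 RPKM in all 5 libraries.

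The adrenergic transcription factors were divided. Of 16 tested, 9 were below 0 and 8 of these lay below both controls in every knockdown library, while 3 lay above both, with a median of -0.47. KLF7 read 20.9 and 25.6 RPKM in controls and 7.95, 7.10 and 7.38 with sh003, and HAND1 13.2 and 16.3 against 3.95, 5.43 and 5.78. In both genes the knockdown libraries of both batches and both shRNAs lay close together, at log2 changes of -1.57 and -1.47 (adjusted p = 0.566 and 0.743). PHOX2A, HAND2 and GATA3 had overlapping groups: PHOX2A read 486 and 389 RPKM against 536, 433 and 380. SIX3, a homeobox gene, was on the other side, at 1.15 and 0.929 against 4.201, 5.30 and 1.87 RPKM (1.38, adjusted p = 0.636).

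Of the neuronal cytoskeleton and RNA-binding list, all 27 members tested had a log2 change below 0 (25 without the batch 2 control), 20 lay below both controls in all 3 libraries, and the median was -1.13. ELAVL3, a neuronal RNA-binding protein, read 53.04 and 68.8 RPKM in controls and 21.98, 7.46 and 5.38 with sh003, a log2 change of -2.58 (SE 0.88; adjusted p = 0.585 without and 0.168 with the block). INA, a neurofilament protein, read 30.4 and 61.1 against 21.0, 7.11 and 4.80 (-2.19, SE 0.86, adjusted p = 0.603, and 0.261 with the block). For both, the batch 1 knockdown library was the highest of the 3 and stood nearest to the controls. STMN4, a regulator of microtubules, followed the same order at 10.9 and 25.9 against 5.10, 2.19 and 0.957 RPKM (-2.63, adjusted p = 0.585), as did L1CAM, an axonal adhesion molecule, at 55.4 and 103 against 32.0, 9.87 and 6.58 (-2.51, adjusted p = 0.566) and CELF3, a splicing regulator, at 48.5 and 67.3 against 26.7, 8.72 and 4.70 (-2.40, adjusted p = 0.574).

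Synaptic genes showed the same gradient. Of 21 tested, 19 were below 0, 12 lay below both controls, and the median was -1.06 (-0.62 without the sh1 library). UNC13A, which primes synaptic vesicles, read 14.8 and 20.2 RPKM in controls and 8.88, 2.54 and 1.14 with sh003 (-2.31, adjusted p = 0.645), SYP, a vesicle membrane protein, 12.6 and 23.3 against 9.11, 3.58 and 1.87 (-1.97, adjusted p = 0.629), and SYN1, a vesicle-binding phosphoprotein, 8.05 and 12.1 against 4.89, 1.69 and 1.19 (-1.94, adjusted p = 0.615). Within batches the list median was -0.22 for sh2 in batch 1, -1.44 for sh2 in batch 2 and -1.91 for sh1 in batch 2. For the cytoskeleton list these medians were -0.47, -1.41 and -2.11.

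Neuronal ion channels were 15 of 18 below 0, with 9 below both controls and a median of -0.50, which was -0.29 without the batch 2 control and -0.27 without the sh1 library. CACNA1B, the N-type calcium channel of nerve terminals, read 5.53 and 7.73 RPKM in controls and 3.23, 0.703 and 0.348 with sh003 (-2.17, adjusted p = 0.593). SCN3B, a sodium channel subunit, read 4.77 and 11.6 against 2.82, 1.51 and 0.815 (-1.95, adjusted p = 0.566). CHRNA3, a nicotinic receptor subunit of sympathetic ganglia, read 149 and 179 against 93.2, 101 and 50.47 (-1.06, adjusted p = 0.674). Among receptor tyrosine kinases, ALK, the kinase mutated in familial neuroblastoma, lay below both controls at 24.4 and 28.03 against 14.5, 6.92 and 3.07 RPKM (-1.86, adjusted p = 0.566). The whole list of neurotrophic receptors had 7 of 12 above 0 and a median of 0.21 (0.06 without the batch 2 control).

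**Figure D3:**
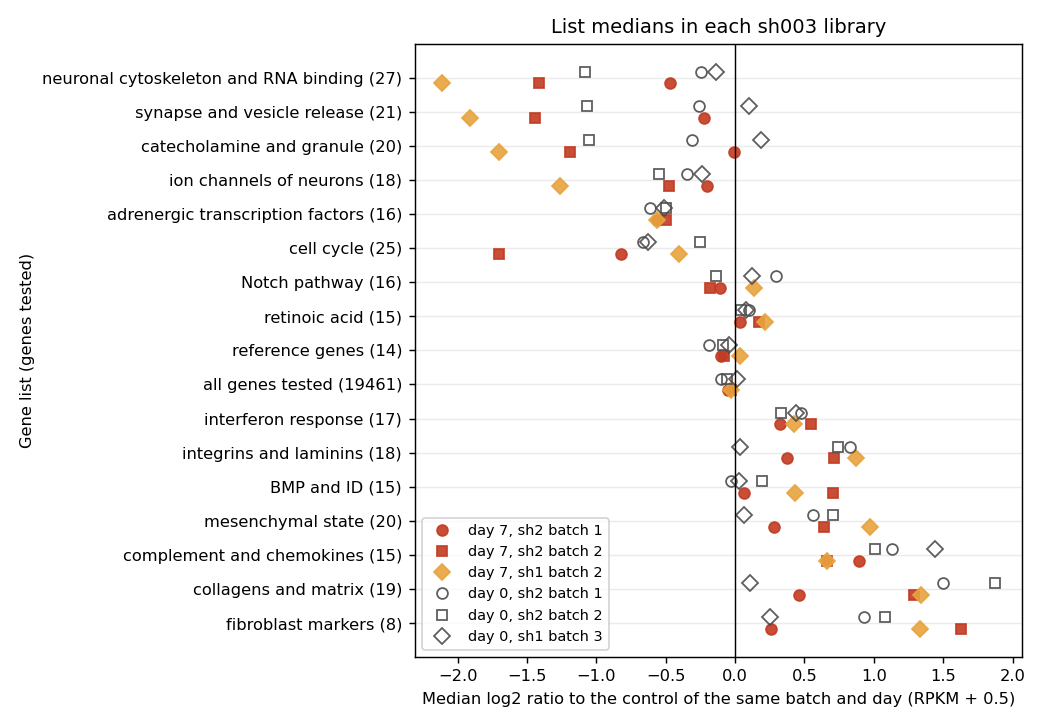
Median log2 ratio, to the control of the same batch and day, of 16 gene lists and of all genes tested, for each of the 3 sh003 libraries at day 7 (filled) and at day 0 (open); the number of genes tested stands beside each list. At day 7 the neuronal, synaptic and catecholamine lists are lowest in the sh1 library and nearest to 0 in the batch 1 library, while the collagen, integrin and mesenchymal lists lie above 0 in all 3.

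Cell cycle genes differed between the sh1 and sh2 libraries. All 25 listed genes of DNA replication and mitosis were lower than both controls in both sh2 libraries. In the sh1 library 9 were below both controls and 10 were above both, and 16 were more than 2-fold above the sh2 library of the same batch. Those 9 were the MCM helicase genes, PCNA, TYMS, CCNE2 and E2F1, which serve DNA replication and the entry into it. MCM2, part of the replicative helicase, read 41.4 and 35.9 RPKM in controls and 26.1, 15.7 and 22.3 with sh003, and PCNA, the polymerase clamp, 99.2 and 157 against 60.0, 67.0 and 66.0 (-0.95, SE 0.28, adjusted p = 0.566). E2F1, which switches such genes on, read 45.0 and 35.7 against 23.6, 13.0 and 11.2 (-1.38, SE 0.46, adjusted p = 0.577).

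Genes of mitosis were lower in the sh2 libraries and mostly not in the sh1 library. PLK1, a mitotic kinase, read 8.63 and 11.6 RPKM in controls, 4.67 and 3.41 in the sh2 libraries and 26.9 in the sh1 library. CDC20, an activator of the anaphase-promoting complex, read 13.3 and 18.3 in controls, 5.27 and 4.40 with sh2 and 43.3 with sh1. MKI67, the common marker of cycling cells, read 27.1 and 32.3, then 14.2 and 8.11, then 34.1. The sh1 library is the one tagged as non-differentiated, and it is the sole sh1 library at day 7, so shRNA, tag and library cannot be told apart here. The list's median was -0.77 with that library, -1.33 without it and -0.48 without the batch 2 control. At day 0 the sh1 library of batch 3 had all 25 genes below its control, at a median log2 ratio of -0.63. For sh2 at day 0, 24 and 23 genes were below it in batches 1 and 2, at medians of -0.665 and -0.25. Over all genes at day 7, 95.5% of the 19461 differed less than 2-fold between the sh1 and sh2 libraries of batch 2. In sh1, 473 were more than 2-fold higher and 395 more than 2-fold lower. That share was not taken for other pairs of libraries, so it does not rate how alike the sh1 and sh2 libraries are.

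**Figure D4:**
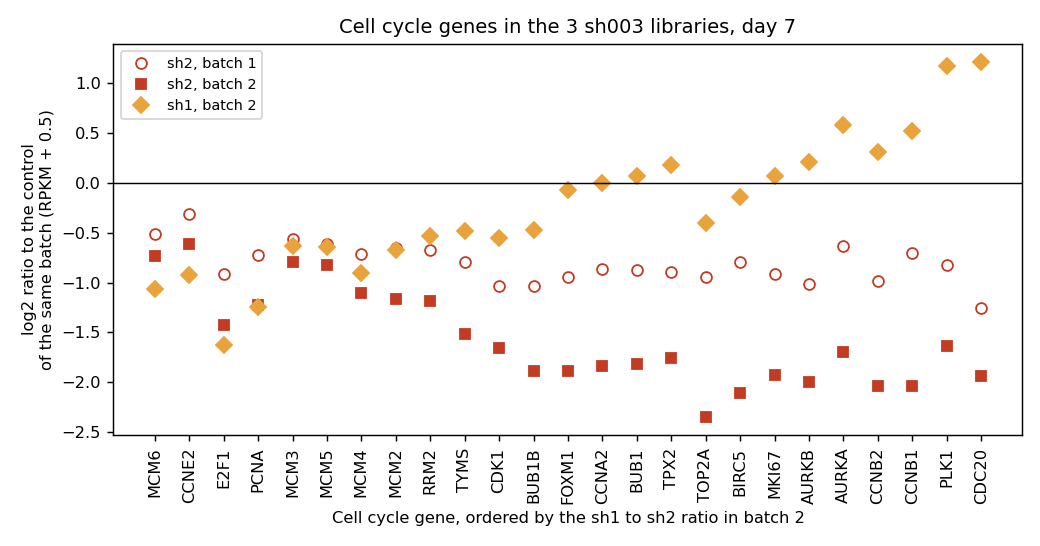
log2 ratio of each sh003 library at day 7 to the control of its batch for 25 cell cycle genes, ordered by the ratio of sh1 to sh2 in batch 2. Both sh2 libraries lie below 0 for all 25 genes, while the sh1 library lies near sh2 for the MCM genes, PCNA and E2F1 and above 0 for PLK1, CDC20, CCNB1 and AURKA.

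Among cyclins and their inhibitors, CCND1, the cyclin of cell cycle entry, had overlapping groups at 115 and 172 RPKM against 122, 66.3 and 37.2 (-1.06, adjusted p = 0.707). CDKN1A, the inhibitor p21, read 52.4 and 88.4 against 50.6, 40.1 and 38.3 (-0.67, adjusted p = 0.952). The list of CDK inhibitors and D cyclins had 8 of 13 above 0 with a median of 0.15 (-0.07 without the batch 2 control), and that of p53 targets 5 of 13 above 0 with a median of -0.13 (-0.305 to -0.01 with 1 library left out).

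Extracellular matrix genes lay on the other side. MMP2, a protease that digests basement membrane collagen, read 41.6 and 40.9 RPKM in controls and 83.4 (sh2, batch 1), 136 (sh2, batch 2) and 99.5 (sh1) with sh003. The controls were almost equal and all 3 knockdown libraries were at 2 times their level or more, at a log2 change of 1.33 (SE 0.26, adjusted p = 0.46, and 0.109 with the block). At day 0 the MMP2 controls had read 82.8, 99.9 and 136, so the day 7 knockdown libraries lay within the range of day 0 controls. MMP11, a stromal protease, read 9.08 and 8.66 against 36.2, 76.8 and 80.4 (2.71, SE 0.65, adjusted p = 0.566). TIMP3, a protease inhibitor, was lower, at 18.9 and 32.4 against 3.82, 5.64 and 9.93 (-1.96, adjusted p = 0.835), and the protease list as a whole had 13 of 21 above 0 with a median of 0.31 (0.15 without the batch 2 control and 0.13 without the batch 2 sh2 library).

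Of 19 collagens and matrix proteins tested, 15 were above 0, 10 lay above both controls in all 3 libraries, and the median was 0.92 (0.42 without the batch 2 control). COL5A1, a fibril collagen, read 15 and 2.95 RPKM in controls and 39.6, 27.4 and 42.8 with sh003 (2.32, adjusted p = 0.645). The controls were far apart there, and the ratio within each batch was above 1 on the log2 scale. THBS2, an adhesive matrix protein, read 16.8 and 5.68 against 53.4, 55.1 and 30.0 (2.12, adjusted p = 0.711), and SPARC, a collagen-binding protein, 59.1 and 34.8 against 116, 139 and 170 (1.61, adjusted p = 0.635). Integrins and laminins were 15 of 18 above 0, with 12 above both controls, none below both and a median of 0.55. The median was 0.83 without the batch 1 control, and 0.39 with 13 of 18 above 0 without the batch 2 control. ITGA2, a collagen receptor subunit, read 5.97 and 3.19 against 13.3, 20.1 and 9.66 (1.54, adjusted p = 0.647), and ITGB5 37.8 and 14.7 against 55.7, 45.2 and 71.5 (1.24, adjusted p = 0.757).

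The mesenchymal state list had 16 of 20 above 0, 7 above both controls and a median of 0.59; without the batch 2 control 13 of 20 were above 0 and the median was 0.25. YAP1, a coactivator of the Hippo pathway, read 6.67 and 3.02 RPKM against 9.60, 11.8 and 11.5 (1.19, adjusted p = 0.623), and IL6ST, a cytokine receptor subunit, 25.7 and 33.7 against 50.7, 95.6 and 60.2 (1.16, adjusted p = 0.805, and 0.109 with the block). Fibroblast markers lay on the same side as the matrix genes: all 8 tested of 10 were above 0, 6 lay above both controls, and the median was 0.94 (0.54, with 7 of 8 above 0, without the batch 2 control). The lists are not separate readings, since COL1A1, COL3A1, LUM and DCN were tested in both. NOTCH2 and MAML2 were likewise in both the mesenchymal and the Notch list. The summed level of the fibroblast markers was 189 to 286 RPKM in the controls and 305 to 498 with sh003. PDGFRA, a growth factor receptor of fibroblasts, read 11.6 and 9.11 against 19.0, 48.9 and 43.8 (1.69, adjusted p = 0.574), and DCN, a small proteoglycan, was at 0.153 and 0.596 against 0.849, 3.04 and 0.758. POSTN was at 0 in all 5 libraries and COL1A2, the partner chain of COL1A1, was under 0.1 RPKM in all 5, while COL3A1 alone made up most of the summed level, at 221 and 149 against 223, 194 and 380. Whether a change in the mix of cells has a part in these results was not tested, and in bulk RNA fewer cells of a type and less RNA per cell cannot be told apart. Of 10 Schwann cell and glia markers, 7 were under 1 RPKM in all 5 libraries, among them SOX10, with FABP7 at 0, and the list summed to 8.64 to 14.0 RPKM. All 9 blood cell markers were under 1 RPKM in all 5, with CD3E and HBB at 0, and summed to 0.949 to 1.38 RPKM.

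Complement and chemokine genes were 11 of 15 above 0, with 9 above both controls and 4 more than 2-fold higher within every batch, at a median of 0.70. C7, a subunit of the membrane attack complex, read 30.2 and 27.7 RPKM in controls and 165, 223 and 128 with sh003 (2.51, SE 0.61, adjusted p = 0.566, and 0.149 with the block). CFI, a protease that inactivates complement, read 16.0 and 7.84 against 61.5, 65.5 and 74.7 (2.53, adjusted p = 0.704), while C1R and C1S, the proteases that start the classical cascade, stood at 5.42 RPKM or lower in every library. C7 and CFI were higher in all 3 knockdown libraries by more than 2-fold.

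Interferon response genes were 16 of 17 above 0, with 9 above both controls and a smaller median of 0.40. B2M, the light chain of MHC class I, read 34.9 and 43.2 RPKM against 93.4, 154 and 96.7 (1.51, SE 0.67, adjusted p = 0.67, and 0.103 with the block). IFI44 read 1.02 and 1.41 against 2.67, 4.54 and 2.60 (1.11, adjusted p = 0.799), and IFIH1 and MX1 stayed under 1 RPKM in all 5. The heavy chain gene HLA-C is one of those listed at 0 in all batch 1 libraries. It is counted in this list, and its change without the block holds part of that batch difference. In batch 2 it read 16.8 in the control, 70.7 with sh2 and 73.2 with sh1.

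Signalling genes gave mixed lists. The Wnt list had 8 of 17 above 0 and a median of -0.11, but 9 of 17 above 0 with any one of the sh003 libraries left out, at medians of 0.265 (without sh1), 0.04 and 0.12 (without sh2 of batch 1 and of batch 2). It held WNT5A, a ligand of the non-canonical branch, above both controls (4.07 and 1.62 against 9.87, 12.2 and 24.9 RPKM; 2.27, adjusted p = 0.593) and DKK1, a secreted Wnt inhibitor, below both (68.4 and 111 against 19.1, 30.1 and 21.9; -1.88, SE 0.43, adjusted p = 0.546, and 0.109 with the block). Both differed by more than 2-fold in every batch. The BMP list had 12 of 15 above 0 and a median of 0.55 (0.23 without the batch 2 control), with BMP7 on the other side at 2.62 and 8.48 against 1.05, 1.03 and 0.819 (-1.85, adjusted p = 0.69). Axon guidance genes were 19 of 24 above 0 with a median of 0.15. NRP1, the co-receptor of semaphorin 3 and VEGF, stood out among them at 1.48 and 1.11 against 10.1, 12.0 and 5.09 RPKM (2.34, SE 0.66, adjusted p = 0.566, and 0.103 with the block), beside SEMA3C, one of its ligands, at 19.7 and 8.13 against 35.6, 68.6 and 37.3 (1.79, adjusted p = 0.607).

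Retinoic acid genes had 7 of 15 above 0 and a median of -0.00. CRABP2, which carries retinoic acid to its receptor, read 1256 and 1153 RPKM in controls, 302 and 289 with sh2 and 1036 with sh1, so the sh1 library lay near the controls (-1.42, adjusted p = 0.813). ALDH1A3, an enzyme that makes retinoic acid, read 8.996 and 4.58 against 2.81, 1.96 and 3.58 (-1.11, adjusted p = 0.594). The lists of ATF4 targets, hypoxia genes and ERK feedback genes had medians of 0.08, 0.03 and 0.10. Reference genes were 7 above and 7 below 0, at a median of -0.00. B2M, described above, was the highest of these genes at 1.51. For all 5 lists just named the sign of the median depended on which library was left out. Cholesterol synthesis genes had a median of -0.28 with 13 of 16 below 0 (-0.37 to -0.08 with 1 library left out).

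The naming rule takes the 10 genes per direction with the smallest p among those with a mean of at least 2 RPKM and groups that do not overlap. On the higher side, besides MMP2, ST8SIA6, a sialyltransferase, read 2.82 and 1.18 RPKM in controls and 13.6, 11.4 and 7.40 with sh003 (2.22, SE 0.41, adjusted p = 0.46, and 0.103 with the block). RGS4, which shortens G protein signals, read 82.5 and 50.2 against 141, 278 and 207 (1.64, SE 0.33, adjusted p = 0.46). HTR2B, a serotonin receptor, read 0.927 and 0.934 against 4.11, 9.74 and 3.37 (1.99, adjusted p = 0.46). The others were CYTL1 (1.89), PRCP (1.28), KLF15 (1.07), SEMA6A (0.95), PDIA6 (0.72) and CPOX (0.71), where the bracket gives the log2 change, with adjusted p from 0.46 to 0.546.

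On the lower side, ENC1, an actin-binding protein of neurons, read 29.9 and 39.8 RPKM in controls and 7.71, 4.31 and 6.48 with sh003 (-2.43, SE 0.45, adjusted p = 0.46, and 0.109 with the block). GNG2 and GNG8, both gamma subunits of G proteins, read 44.8 and 97.8 against 22.8, 20.04 and 24.6 (-1.54) and 413 and 492 against 223, 181 and 208 (-1.15). For GNG2 and GNG8 the knockdown libraries of both batches stood close together, which a choice by smallest p favours. SLC4A8, a bicarbonate transporter, was at -1.19, YBX2 at -1.42, ERFE at -1.37, CNKSR2 at -1.19, the pseudogene RPL13P8 at -1.005 and MICAL1, an actin-oxidising enzyme, at -0.59, with adjusted p of 0.46 for each but YBX2 (0.462). Reads of RPL13P8 may belong to its parent gene. Of the 20 genes, 9 overlap an exon of a gene on the opposite strand, and the sources used here do not say whether counting used the strand.

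**Figure D5:**
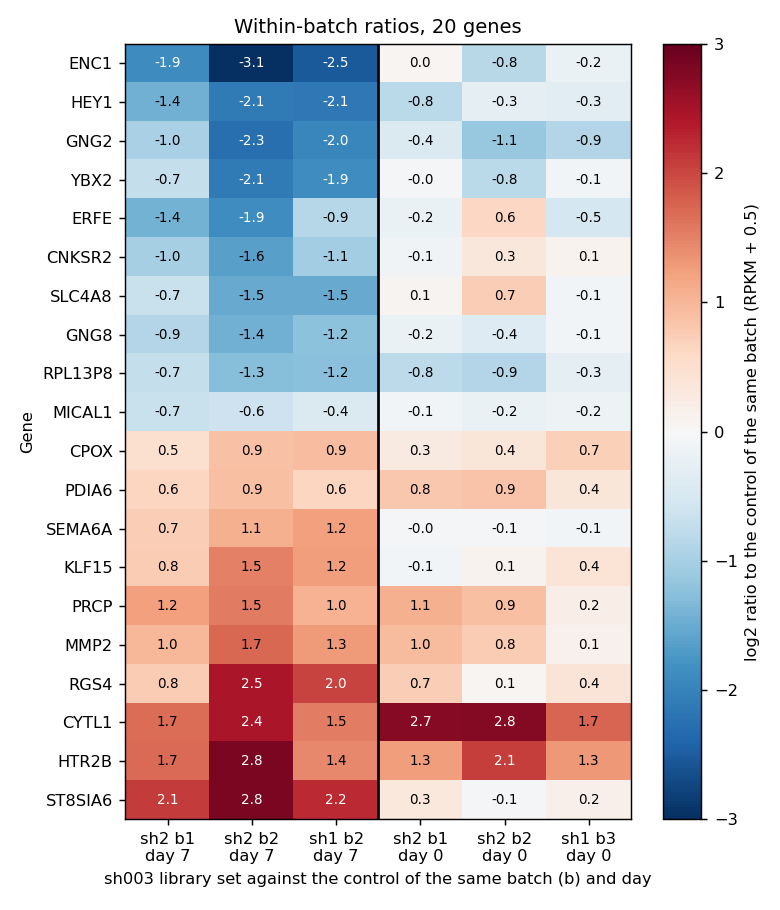
log2 ratio of each sh003 library to the control of its own batch (b) and day, for the 20 genes of the naming rule, at day 7 (left of the line) and day 0 (right). The day 7 columns have 1 sign per gene because the rule chose them so, and the day 0 columns, which the rule did not use, are near 0 for ST8SIA6 and SEMA6A and as large as at day 7 for CYTL1.

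Among the genes more than 2-fold changed within every batch, a few with large differences outside the lists were picked after their values were seen. NEUROG2, a proneural transcription factor, read 31.0 and 27.8 RPKM in controls and 0.451, 0.567 and 2.37 with sh003 (-4.39, SE 1.04, adjusted p = 0.566). IGF2, a growth factor, read 353 and 333 against 19.6, 9.88 and 50.3 (-3.97, SE 1.06, adjusted p = 0.566). PLN, a regulator of the calcium pump, read 1.89 and 1.03 against 5.04, 38.3 and 23.4 (3.17, adjusted p = 0.546). HAS2, which makes hyaluronan, read 1.802 and 0.670 against 12.4, 12.1 and 8.61 (2.80, adjusted p = 0.585, and 0.103 with the block).

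The day 0 libraries, which had no part in choosing these genes, give a separate reading of the same shRNAs, here sh2 in batches 1 and 2 and sh1 in batch 3, each against its own batch's control. Of the 106 genes more than 2-fold higher at day 7, 82 (77.4%) were above control in all 3 day 0 ratios, against 13.4% of all genes tested, and 28 (26.4%) were more than 2-fold above in all 3, against 0.529%. Their median log2 change was 1.63 at day 7 and 1.33 at day 0. Of the 107 genes lower at day 7, 48 (44.9%) were below control in all 3 day 0 ratios, against 21.4%, and 11 (10.3%) more than 2-fold, against 0.206%. Their medians were -1.74 at day 7 and -0.56 at day 0. The higher and lower sets are unlike in make-up: 94 of the 106 were protein coding and 93 had a mean of at least 2 RPKM, against 61 and 59 of the 107. Whether this bears on their day 0 shares was not tested. Without the day 0 sh2 library of batch 1, an alternative chosen after seeing the data, 87 of the 106 (82.1%) were above control in both ratios left, against 20.7% of all genes, and 56 of the 107 (52.3%) were below, against 26.2%. More than 2-fold differences in both were found for 29 (27.4%, against 0.709%) and 13 (12.1%, against 0.344%).

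Batches 1 and 2 have controls on both days, while the day 0 sh1 library belongs to batch 3, whose control was low for several neuronal genes. ELAVL3 read 59.9, 74.2 and 12.7 RPKM in the day 0 controls of batches 1, 2 and 3, and 22.1, 8.20 and 5.70 in the matching knockdown libraries. CHGA read 102, 211 and 16.4 in those controls and 55.7, 13.5 and 12.5 with sh003. The batch 3 control was thus close to the knockdown libraries, and its distance from the other day 0 controls was large for both genes. For HEY1 the day 0 controls read 19.3, 16.1 and 8.21 and the knockdowns 10.8, 13.1 and 6.41, lower in each batch.

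Whether the effect of sh003 differed between day 7 and day 0 was tested as an interaction. No gene passed by limma (0 higher, 0%; 0 lower, 0%), with 284 at an unadjusted p under 0.05, and 0 passed with the batch block (731 unadjusted) or with voom (240), and 0 without the day 0 sh2 library of batch 1 (220). The smallest unadjusted p among genes the rule allows belonged to ATP2B1, a calcium pump, SLC4A8, CREB5 and KCNMB4. ATP2B1 was below control at day 7 (15.6 and 17.8 against 10.7, 13.0 and 10.8 RPKM) and above it at day 0 (8.48, 7.84 and 9.97 against 16.3, 19.8 and 12.2), with a difference of -1.34 (SE 0.26, adjusted p = 1.00). CREB5, a transcription factor, gave -1.87 and KCNMB4, a potassium channel subunit, -0.98 in the same direction. For HEY1 the difference was -1.34 (SE 0.46, adjusted p = 1.00), and for ST8SIA6 2.08 (SE 0.55, adjusted p = 1.00).

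The sh003 libraries were also tested against the 2 libraries with shRNAs to CASC15-004 (sh1 and sh2, both of batch 2) at day 7, a contrast whose 2 groups hold no control library, though the controls share its estimate of spread and, with the block, of batch. limma called 3 genes higher (0.0154%) and 1 lower (0.00514%), and with the batch block 70 higher (0.36%) and 69 lower (0.355%). The higher genes were ST8SIA6, which read 1.39 and 0.336 RPKM with CASC15-004 shRNAs (3.13, SE 0.41, adjusted p = 0.0435), PLAGL1, a zinc finger gene, at 5.45, 7.48 and 7.81 against 2.001 and 1.70 (1.64, SE 0.21, adjusted p = 0.0435), and COL26A1, a collagen, at 19.5, 22.6 and 15.2 against 3.17 and 2.26 (2.61, SE 0.30, adjusted p = 0.0435). For PLAGL1 and COL26A1 the controls read 5.01 and 4.45, and 13.5 and 14.7, closer to the sh003 level. The lower gene, named outside the rule, was BCL2A1, a BCL2 relative, at 0.113 RPKM or less with sh003, 0.12 or less in controls, and 15.8 and 3.67 with CASC15-004 shRNAs (-3.92, SE 0.50, adjusted p = 0.0435).

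HEY1 read 6.00 and 5.98 RPKM with the CASC15-004 shRNAs, beside 5.86 to 6.85 with sh003, a difference of 0.05 (SE 0.34, adjusted p = 0.96). The CASC15-004 libraries were unlike each other elsewhere. CYP26A1 read 301 in its sh1 library and 9.001 in its sh2 library, ELAVL3 13.5 and 63.3, INA 9.46 and 50.1, CHGA 52.7 and 1080, and DDC 5.77 and 51.9. MMP2 read 75.6 and 51.6 there, below the 3 sh003 libraries, at a difference of 0.73 (SE 0.26, adjusted p = 0.296). For CHGA the difference was -4.67 (SE 1.301, adjusted p = 0.248, and 0.08 with the block) and for DDC -3.59 (SE 0.69, adjusted p = 0.145, and 0.067 with the block). Several list medians of CASC15-004 against control lay on the same side as those of sh003. They were 1.34 for complement and chemokines, 0.98 for interferon response, -0.78 for synaptic genes, -0.645 for cytoskeleton, -0.60 for catecholamine and -0.65 for ion channels. Others did not: collagens were at 0.01, integrins at 0.03, adrenergic factors at 0.02, fibroblast markers at -0.29 and cell cycle at 0.41.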

How the data were processed

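Total RNA of SH-SY5Y cells was sequenced, and the authors deposited 1 table of RPKM for 63677 genes in 15 monolayer libraries, of which 5 enter the comparison and the other 10 share its estimate of spread. The submitters' processing notes name hg19 as the genome build and, as tools, featureCounts, Subread and TopHat; versions and the annotation are not given in the sources used here. Per the labels' protocols, a stranded kit that removes ribosomal RNA was used. Library totals of 11.9 to 37.9 M reads were recovered from the spacing of the deposited RPKM values, and 100% of values then came out as whole reads within 0.01. Of the gene identifiers, 52181 matched a symbol.

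Genes at 1 RPKM or above in at least 2 of the 15 libraries were kept (19461). limma 3.58.1 in R 4.3.3, with a mean-variance trend, was fitted to log2(RPKM + 0.5), so fold changes of low genes are understated; adjusted p-values are Benjamini-Hochberg over all genes, two-sided, with a threshold of 0.05. Groups were taken from titles. The fit has 9 residual degrees of freedom, and 7 with the batch block. The titles give the batch; differences between batch 1 and batch 2 correlated across genes between control and sh2 libraries (r = 0.929 at day 0 and 0.922 at day 7), so batches pair the libraries, and the blocked value is printed where it changes a call and for the leading genes. limma's voom was run on the recovered reads as an alternative. The fits were tested on simulated data. The genes named, the lists and the comparison were chosen with earlier results of these data known. The naming rule takes up to 10 genes per direction, called first and then by smallest p, with groups that do not overlap, plus markers, the CASC15 axis, and up to 4 members per list with the largest change at a mean RPKM of at least 1; members shown beside them to describe a list were picked after their values were seen. Sphere and KELLY samples were not used here. shRNA targets were matched to GENCODE release 29 transcripts (GRCh38), since hg19 sequence was not used here. Results of some genes that the naming rule selects are not reported here.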

Additional observations from a re-analysis of the deposited data

How the results depend on the processing

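Of 83 genes whose log2 change is given, all but 1 kept its sign under all alternatives run (up to 23 each: pseudocounts of 0.1 and 1, filters, scalings, voom, batch as a replicate block, subsets of libraries and each day 7 library left out); the log2 change of CASC15 did not, with leave-one-out values of -0.2827 to 0.01108, the latter without the sh1 library, with and without the replicate block. The count of genes called between sh003 and control was 0 with each library left out and under every scaling, and departed from 0 in these cases: 60 (8 higher, 52 lower) with no filter on low values, where 41887 genes were tested; 1 with the replicate block, alone or with voom; and, with the replicate block and a library left out, 2 without the batch 1 control, 41 without the sh1 library and 6 without the batch 1 sh2 library. With the 4 batch 1 libraries left out, an alternative chosen after seeing the data, it was 34 (7 higher, 27 lower), none of them a gene given here. The cause of these differences was not tested. HEY1 lay between -2.125 and -1.52 and passed in 5 of 23 alternatives. Of the 83 genes, 7 passed in some alternative, HEY1 among them. All 7 passed with the replicate block and without the sh1 library, whose tag contradicts its title. Quantile normalization moved the median over all genes from -0.0912 to 0.0223, with 10207 genes above 0 in place of 7620. The interaction count was 0 in each alternative run. The count between sh003 and CASC15-004 shRNAs was 4, but 0 with a pseudocount of 0.1, 8 with one of 1, 139 with the replicate block, and 0 to 343 with 1 library left out (0 without the batch 2 sh2 library of sh003, 55 without its sh1 library, 343 without the CASC15-004 sh1 library, 1 without the CASC15-004 sh2 library).

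The medians of the neuronal, synaptic and catecholamine lists were -1.74, -1.65 and -1.55 without batch 1, -0.87, -0.62 and -0.72 without the sh1 library, and -0.641, -0.449 and -0.377 with the replicate block and without the batch 2 control. Leaving out the batch 2 control also brought the medians of the collagen, mesenchymal, fibroblast, BMP, ion channel and protease lists nearer to 0 by over 1.5 times, with no change of sign. Without the batch 1 control the mesenchymal, BMP and neurotrophic receptor medians were 0.902, 0.922 and 0.332. Batch 1 libraries held the fewest reads, which limits what low genes can show there. Recovered reads are not molecules.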
